A study of Mus musculus with 125 samples.

Results

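The 8 mouse genes followed here were listed by symbol, with earlier results of these data known: Nr2f2, Vwf, Vcam1, Icam1, Icam2, Selp, Sele and Lcn2. They are 8 of the 27998 genes in the single-cell matrices and 8 of the 21887 protein-coding genes of the gene table used for positions. Both single-cell RNA and open chromatin were read for them. The first was counts of unique molecular identifiers (UMIs, 1 per captured RNA molecule) in 5 brain libraries enriched for endothelial cells, in barcodes with at least 200 genes, at most 10% mitochondrial UMIs and at least 3 of the 6 endothelial genes Cdh5, Pecam1, Egfl7, Esam, Tie1 and Kdr. The second was peaks of open chromatin (ATAC-seq) that overlap a gene or lie within 50 kb of it, in every endothelial and input library. Merging all peaks gave 346278 regions present in at least 2 libraries, of which 237 belonged to the 8 genes, 5 of them shared by the neighbours Selp and Sele.

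The ATAC-seq set held 66 libraries: 12 endothelial and 10 input libraries from adult mice (2 months old), 14 and 16 from postnatal day 6 (P6 by the label, a day later by the protocol text), and 11 and 3 from embryos of day 12 (E12). The protocol text gives collection of the E12 embryos at day 12.5. Adult and P6 organs were brain, retina, heart, lung, liver and kidney, and E12 material was brain, heart and trunk. All mice of the ATAC-seq set, input libraries included, had received tamoxifen (0.015 mg/kg in the labels), embryos through their dams, pups in the first days of life and adults a week before collection, and tissues were kept where GFP was seen in the vessels. The labels name neither the Cre driver nor the strain, and how endothelial nuclei were separated is not given in the sources used here, so the cells behind the tag are known only from their markers. The input libraries are those labelled as input of the same tissue. The single-cell libraries were 1 each from brains of embryonic day 9.5 (E9.5), E12.5 and E16.5, and from cortex at P8 and adult, prepared with beads against CD31. The library labelled E16.5 was deposited under a name that gives a later embryonic day; it is called E16.5 here, by its label. The labels do not say whether replicates came from separate animals, so p-values measure the spread between these libraries, which may be partly technical.

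The genes describe the side of the circulation where white blood cells leave the blood. Nr2f2 encodes COUP-TFII, a nuclear receptor that maintains the venous fate of endothelial cells and holds back Notch signalling, which favours arterial fate. Vwf encodes von Willebrand factor, stored in granules of endothelial cells together with P-selectin (Selp). Selectins (Selp, Sele) slow leukocytes on the vessel wall, and members of the immunoglobulin family (Vcam1, Icam1, Icam2) then bind leukocyte integrins to arrest them. Lcn2 encodes lipocalin-2, a secreted protein that binds bacterial iron carriers and is induced in inflamed endothelium. In the brain, leukocytes are known to leave the blood mainly through venules.

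Peak lists held 19464 to 144197 peaks per library from 10139069 to 59082479 tags. They were longer at P6 (median 69067 peaks in endothelial libraries) than at adult (36755), and the regions of the 8 genes followed, with a median of 73.5 regions carrying a peak per P6 endothelial library and 45.5 per adult one. Input lists were longer by median than endothelial lists at each age: 48589 peaks in adult inputs, 93929 in P6 inputs, and 141866 against 101233 at E12. Among the endothelial libraries a pair stood apart by sparse lists: P6 brain endothelial replicate 1 (27160 peaks, against 79903 and 87133 in the other P6 brain endothelial libraries) and E12 heart endothelial replicate 3 (39096, against up to 120456). Inputs of a group differed too: 32560 and 82301 peaks in adult retina, 34327 and 78793 in adult lung, and 51111, 52272 and 115914 in P6 kidney. Of 9 endothelial marker genes, 8 or 9 had a peak at a gene end in each endothelial library. Photoreceptor markers also had peaks in the retinal endothelial libraries, in 6 of 6 marker-library pairs at adult and 9 of 9 at P6, and cardiomyocyte markers in 4 of 4 at P6, but in 0 of 4 in adult heart. Markers of the main tissue cells were also found in liver (3 of 4 at adult, 2 of 4 at P6), lung and kidney (2 of 4 each at both ages) P6 brain (2 of 6), E12 brain (3 of 6) and E12 heart (4 of 8) endothelial libraries. Whether these other cells contribute to the peaks below was not tested. In peak lists, fewer nuclei with an open site and a less open site per nucleus cannot be told apart. The brain libraries gave 5644, 6347, 3786, 4778 and 3154 endothelial barcodes from E9.5 to adult, with median UMIs of 7158, 10469, 9017, 8468 and 4896. Of these barcodes 97.4%, 98.9%, 64.4%, 90.1% and 71.6% held UMIs of 2 or more marker genes of other cells. The markers were erythroid, myeloid, megakaryocyte, pericyte, smooth muscle, mesenchyme and neuron genes. With erythroid genes not counted, 4527, 4235, 3244, 3822 and 2602 barcodes held fewer than 2. Any pair of the 5 libraries shared 0 to 35 endothelial barcode sequences. Levels below are in CPM, the UMIs of a gene divided by all UMIs of the endothelial barcodes of a library and scaled to 1000000, with 95% Poisson intervals that cover counting error only. With 1 library a stage, stages were not tested against each other, and stage, dissection and dissociation cannot be told apart.

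**Figure D1:**
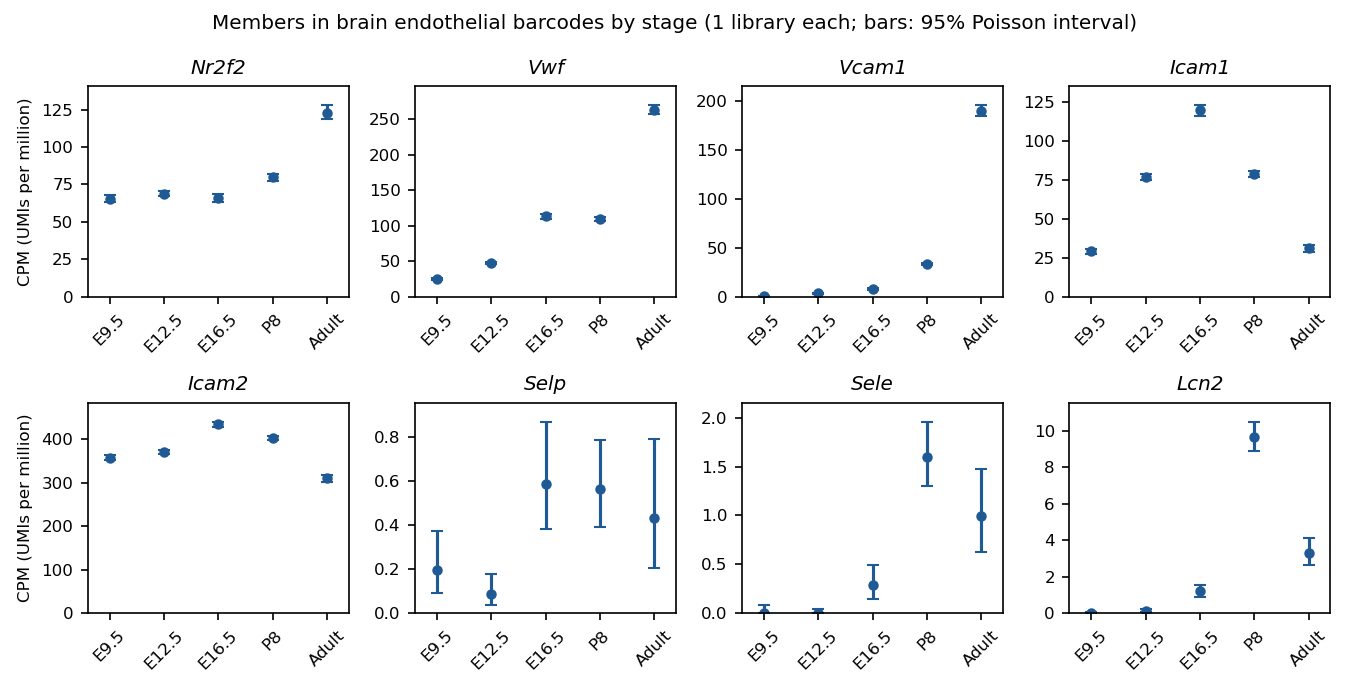
Level in CPM (vertical axes, own scale for each gene) of the 8 genes in brain endothelial barcodes at 5 stages (horizontal axes, 1 library each), with 95% Poisson intervals as bars. Nr2f2, Vwf and Vcam1 were highest in the adult library (123, 263 and 190), Icam1 and Icam2 at E16.5 (120 and 435), and Lcn2 and Sele at P8 (9.64 and 1.60). At a mitochondrial limit of 5% Icam2 was highest at P8 and Sele in the adult.

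Across the 5 stages, 3 of the 8 genes had their highest level in the adult library, a share close to that of all genes: 33.7% of the 14600 genes with at least 50 UMIs peaked there. The pattern therefore says nothing particular about the 8 as a list, and each gene is described by itself.

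Nr2f2, the venous transcription factor, was present at a similar level in the 3 embryonic brain libraries. It was higher after birth, an order that several other settings did not keep. It stood at 65.3 CPM at E9.5 (95% interval 62.9 to 67.6), 68.8 at E12.5 (67.0 to 70.6) and 65.9 at E16.5 (63.5 to 68.4), which overlap. It stood at 79.7 at P8 (77.5 to 82.0) and 123 in the adult (119 to 128), each above the stages before it. This order was not kept without barcodes that hold RNA of other vessel-wall cells. In barcodes without any UMI of the pericyte, smooth muscle and mesenchyme markers the levels were 72.3, 69.6, 61.1, 63.5 and 70.2 from E9.5 to adult, highest at E9.5. In thinned barcodes the levels were 62.7, 70.3, 57.3, 59.7 and 77.0 from E9.5 to adult. At a mitochondrial limit of 5% in place of 10% they were 71.5, 67.0, 65.2, 40.8 and 77.1. Summed pericyte markers were also higher later, 4.20 CPM at E9.5 and 864 in the adult, and 39.8% of adult barcodes with an Nr2f2 UMI held a pericyte marker against 17.7% of those without.

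Each barcode was also thinned to 2000 UMIs, so that shares of barcodes can be compared across depths. An Nr2f2 UMI was then found in 11.1%, 12.4%, 10.3%, 9.93% and 11.5% of endothelial barcodes from E9.5 to adult, against 31.4%, 43.1%, 33.4%, 33.7% and 24.2% before thinning. At equal depth the shares of the 5 stages lay between 9.93% and 12.4%. Among barcodes with none of the 6 endothelial genes the thinned share was 9.98%, 4.51%, 11.8%, 17.6% and 22.1%, so only at E12.5 was the endothelial share higher beyond counting error. At E9.5, E16.5 and P8 the 95% intervals overlap, and in the adult the endothelial share was the lower one; the shares at these 4 stages alone do not show endothelial expression. Which cells these other barcodes are was not examined, and they number 51 to 554 after thinning.

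In thinned adult barcodes, Nr2f2 went with venous genes and away from arterial ones. The 342 barcodes with an Nr2f2 UMI held a mean of 2.86 of 12 venous genes against 1.70 in the other barcodes, and 1.01 against 1.88 of 12 arterial genes. Among the venous genes, Slc38a5, an amino acid transporter of brain veins and capillaries, was found in 49.7% against 24.9%. Emcn, a sialomucin of veins and capillaries, went the other way (38.9% against 44.6%), as did Aplnr, the apelin receptor (1.75% against 2.16%). Among the arterial genes, Bmx, a kinase of arterial endothelium, was found in 3.51% against 15.2%. The same order was seen in the E16.5 library (3.04 against 2.43 venous and 1.01 against 1.70 arterial genes) and at P8 (2.63 against 2.16, and 0.727 against 1.26). Over 2982 adult barcodes and 5376 genes, the genes most correlated with Nr2f2 included Vtn (Pearson r = 0.27), which is known from pericytes, and Tmsb10 (0.21). These values come from the cells of 1 library that share depth, and are given as a description.

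The Nr2f2 gene (chr7:70351946-70366746, mm10, minus strand) carried no peak at its listed start in any of the 66 libraries. Its chromatin was open nearby in all of them: the region inside the gene at chr7:70360943-70362358 and the one 5.7 kb below it at chr7:70345908-70346661 carried a peak in 12 of 12, 14 of 14 and 11 of 11 endothelial libraries of adult, P6 and E12 and in every input. The opposite end of the gene (its lower coordinate) had a peak in 3 of 3 E12 brain endothelial libraries, at 2.19, 1.96 and 2.09 fold over the local background as the authors' peak caller gave it. It had a peak in 2 of 14 P6 and 0 of 12 adult endothelial libraries, against 5 of 16 P6 inputs (2.59 to 2.93 fold) and 1 of 10 adult inputs. Endothelial and input libraries overlapped at both ages, and neither comparison passed (difference in share -0.17, exact permutation p = 0.260, adjusted exact p = 0.588 at P6). None of the 21 tested regions near Nr2f2 passed at P6 (1 higher and 2 lower at unadjusted p under 0.05). One just below the gene (chr7:70350072-70351856, chosen after its values were seen) had a peak in 4 of 14 P6 endothelial libraries and 11 of 16 inputs (difference -0.42, adjusted exact p = 0.117). At a stricter q, −log10 q of at least 3, it passed as lower in endothelial libraries (0 of 14 against 9 of 16, difference -0.53, adjusted exact p = 0.0364). The share of all regions that passed as lower at this q is not given here.

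The gene end of Vwf was found more often in endothelial than in input libraries at P6. From E12.5 on, its RNA was found in a larger share of endothelial barcodes than of those with none of the 6 endothelial genes. Its level was 24.0 CPM at E9.5 (22.6 to 25.5), 47.5 at E12.5 (46.0 to 49.0), 113 at E16.5 (110 to 116), 109 at P8 (107 to 112) and 263 in the adult (257 to 270). The intervals of E16.5 and P8 overlap and the other neighbours do not. The adult level was 11 times that of E9.5 (10.3 to 11.7), and 6.31 times in thinned barcodes (169 against 26.8). Without barcodes holding 2 or more markers of other cells, erythroid genes not counted, it was 15.8 times (240 against 15.2). At E9.5, 24.5% of thinned barcodes with a Vwf UMI held a megakaryocyte marker against 9.76% of those without. Their part in the Vwf level was not tested. In barcodes without a pericyte, smooth muscle or mesenchyme marker the adult level was 215. At equal depth a Vwf UMI was found in 4.64%, 6.54%, 15.8%, 13.5% and 21.8% of endothelial barcodes, against 2.54%, 0.722%, 0%, 0% and 1.05% of those with none of the 6 endothelial genes. The 0 of 51 barcodes at E16.5 and at P8 allows a share of up to 5.88%. The 95% intervals of the shares did not overlap from E12.5 on; at E9.5 they did (4.09% to 5.23%, against 1.36% to 4.31%).

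In the adult, Vwf was found with both venous and arterial genes, and in the embryonic libraries mainly with arterial ones. The 651 thinned adult barcodes with a Vwf UMI held more venous genes (2.38 against 1.69) and also more arterial genes (2.22 against 1.66) than those without. Gkn3, a secreted protein of brain arteries, was found in 33.0% against 16.6% of them. Of the venous genes, Emcn went the other way (33.0% against 47.0%). At P8 the arterial gap (1.71 against 1.1) was larger than the venous one (2.32 against 2.19). Its closest genes by correlation in the adult included Mgp (r = 0.25) and Il1r1 (0.25).

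**Figure D2:**
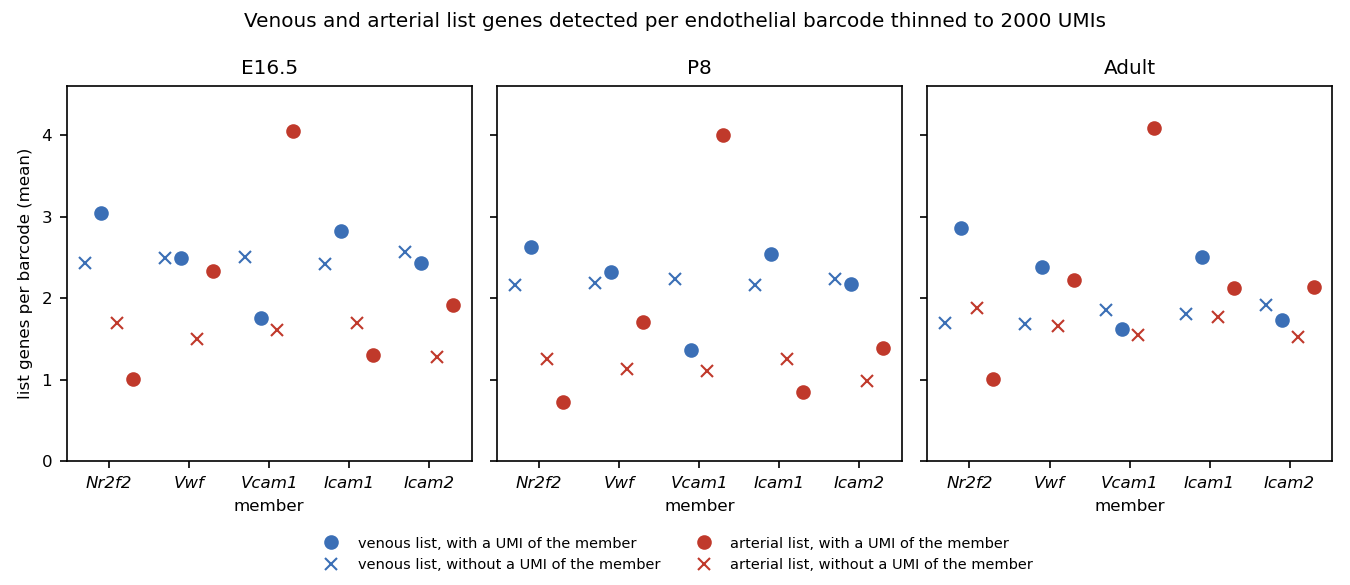
Mean number of venous and of arterial list genes with a UMI (12 genes each) per barcode thinned to 2000 UMIs, in barcodes with and without a UMI of Nr2f2, Vwf, Vcam1, Icam1 or Icam2, in the E16.5, P8 and adult libraries. Barcodes with Nr2f2 sat higher for venous and lower for arterial genes at all 3 stages, and barcodes with Vcam1 the other way round (4.08 against 1.55 arterial genes in the adult).

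Open chromatin at Vwf (chr6:125552948-125686679, mm10) was tested at the gene ends, that is within 500 bp of either annotated end, with libraries permuted between endothelial and input within each organ. The gene table gives no strand for Vwf, and its peaks lay at the lower-coordinate end. At P6 that end had a peak in 13 of 14 endothelial libraries: none, 3.72 and 5.14 fold in brain, 6.13, 4.14 and 4.16 in retina, 4.49 and 4.49 in heart, 6.12 and 6.92 in lung, 4.92 and 5.75 in liver, and 4.85 and 3.42 in kidney. The one endothelial library without it was the sparse P6 brain replicate 1. Among the 16 inputs it was found in all 3 lung libraries (4.46, 4.95 and 4.41 fold) and in 1 of 3 kidney libraries (3.02), and nowhere in brain, retina, heart or liver.

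The difference in share at P6 was 0.72 (exact permutation p = 0.000111, Benjamini-Hochberg adjusted exact p = 0.0299). Vwf was the 1 of the 8 genes that passed at its ends, where 0.679% of the 7362 tested gene ends passed as higher. The call held when any 1 of the 30 libraries was left out (adjusted exact p 0.0285 to 0.0486), the sparse brain library included (0.0338). It was lost with equal numbers of top peaks per library (adjusted exact p = 0.335), without the retina libraries (difference 0.67, adjusted exact p = 0.0736), where no gene end in the genome passed, and with the replicate block (0.385).

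In the adult the same end had a peak in 10 of 12 endothelial libraries (3.10 to 5.69 fold), in all of brain, heart, liver and kidney and in 1 of 2 in retina and in lung. It was found in 2 of 10 inputs, the single heart input (4.21) and 1 lung input (4.35). The difference was 0.58 (exact permutation p = 0.0123), which did not pass adjustment (adjusted exact p = 0.386). No gene end in the genome passed in the adult: at unadjusted p under 0.05, 1.55% of 8303 gene ends were higher, and among the 8 genes Vwf alone. At E12 all 11 endothelial libraries had the peak (4.62 to 7.14 fold) and none of the 3 inputs did. Adult and P6 endothelial libraries were not told apart at this end (difference -0.11, adjusted exact p = 0.713).

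**Figure D3:**
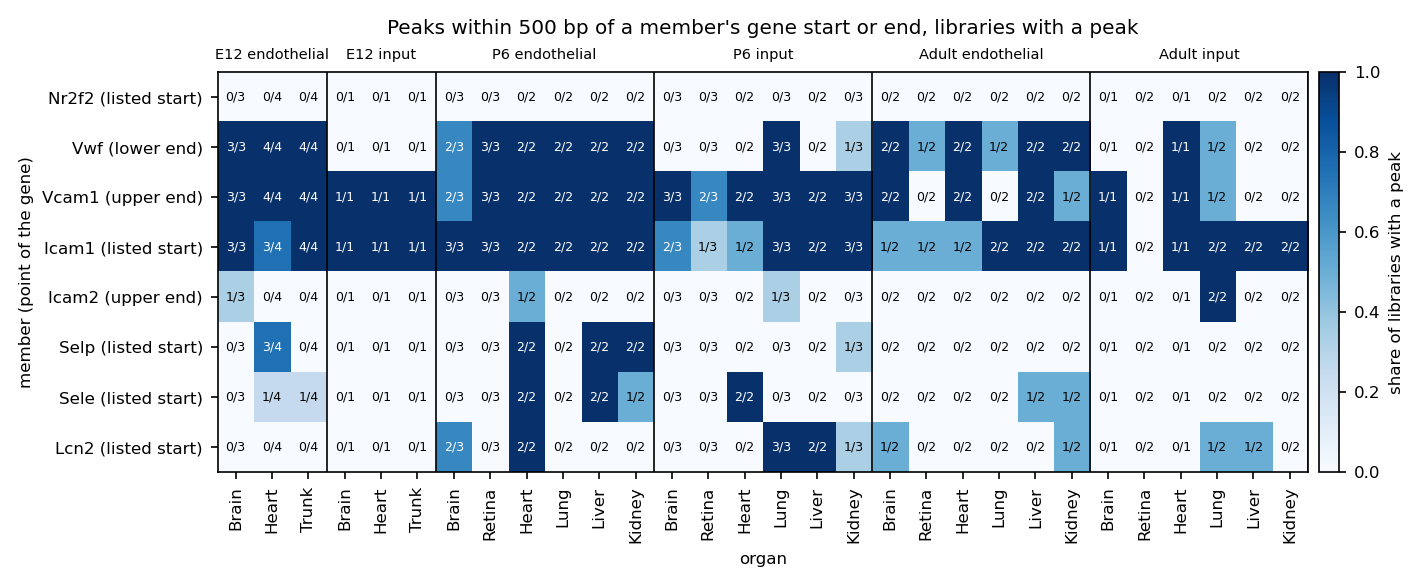
Number of libraries with a peak at the ends or listed starts of the 8 genes, by organ (columns) for endothelial and input libraries of each age, shaded by the share of libraries. The Vwf lower end was found in 13 of 14 P6 endothelial and 4 of 16 P6 input libraries, 3 of the 4 from lung, and the Selp start in all P6 heart, liver and kidney endothelial libraries.

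Of the 50 tested regions near Vwf, 4 passed as higher in P6 endothelial libraries, 8.00%, where 1.48% of all 291434 tested regions passed. One of them, chr6:125552492-125553397, is the gene end just described. The second lay 17.8 kb below the gene (chr6:125534576-125535657) and had a peak in 14 of 14 endothelial libraries (3.58 to 6.33 fold) and 5 of 16 inputs, again all 3 of lung (difference 0.72, exact permutation p = 0.000111, adjusted exact p = 0.0226). The third lay in the gene, 6.8 kb from the lower end (chr6:125558712-125560689), in 12 of 14 endothelial libraries (3.37 to 6.87 fold, absent from both kidney libraries) and 1 of 16 inputs (difference 0.78, adjusted exact p = 0.0148).

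The fourth lay 41.7 kb inside the gene (chr6:125594166-125595195), in 11 of 14 endothelial libraries and 3 of 16 inputs, the 3 of lung (difference 0.58, adjusted exact p = 0.0241). It was absent from both heart libraries and from 1 kidney library, and it lost the call without P6 kidney endothelial replicate 1 (adjusted exact p = 0.0654). All 4 calls held at the stricter q. All 4 were lost with equal numbers of top peaks (differences 0.17 to 0.42, adjusted exact p 0.0613 to 0.665) and where a peak had to cover 50% of a region. They were also lost without the retina libraries (differences 0.50 to 0.73, adjusted exact p 0.110 to 0.134) and with the replicate block (0.534 each). The 2 regions inside the gene differed with age. They were 2 of 35 tested regions near Vwf (5.71%), where 3.45% of all regions passed as lower in the adult. The one at 6.8 kb had a peak in 1 of 12 adult endothelial libraries (a brain library), with a difference of -0.75 from P6 (exact permutation p = 0.000185, adjusted exact p = 0.0272). The one at 41.7 kb had none in 12 (difference -0.75, adjusted exact p = 0.0230). At E12 each was found in 10 of 11.

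These 2 age differences shrank to -0.17 (adjusted exact p = 0.836) and -0.25 (0.653) with equal numbers of top peaks, the setting that evens out the shorter adult lists. They were also lost without the retina libraries (-0.70, adjusted exact p = 0.125 for both), where no region in the genome passed. A further region 23.2 kb below the gene (chr6:125529355-125530141, singled out after its values were seen) was open in every endothelial library of all ages, 12, 14 and 11, and in 2 of 10 adult, 8 of 16 P6 and 0 of 3 E12 inputs. It missed the threshold at P6 (adjusted exact p = 0.0597) and passed with equal numbers of top peaks (14 of 14 against 3 of 16, adjusted exact p = 0.0023) and under the stricter q (0.0130). Another region below the gene (chr6:125512660-125513616, also singled out afterwards) was in 14 of 14 P6 endothelial libraries and 9 of 16 inputs. It passed only with equal numbers of top peaks (11 of 14 against 0 of 16, difference 0.83, adjusted exact p = 0.00428).

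**Figure D4:**
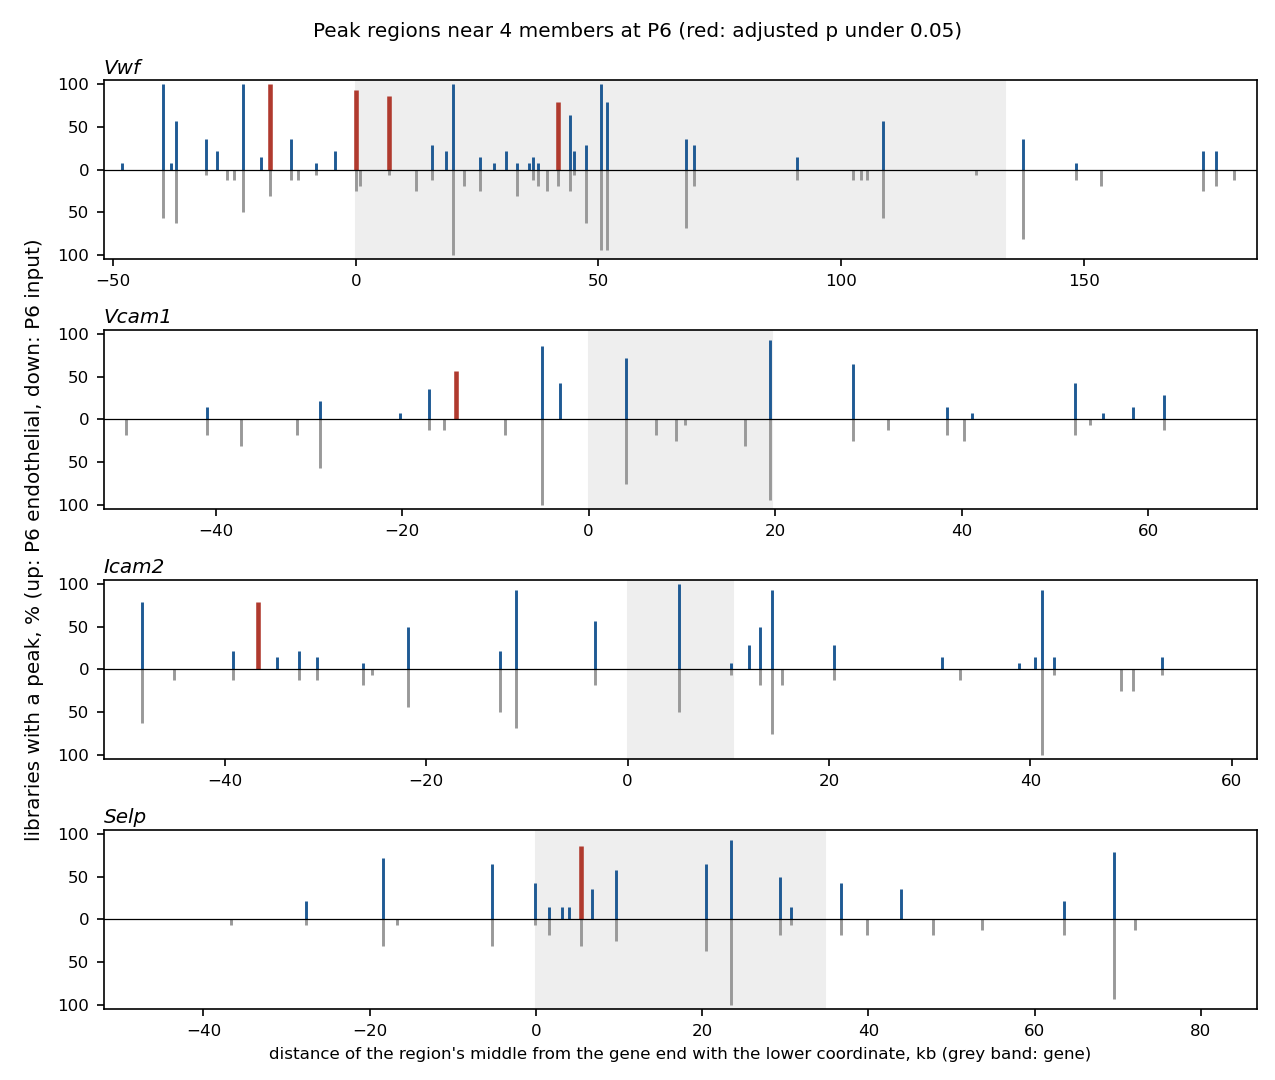
Share of P6 endothelial (upward bars) and P6 input libraries (downward bars) with a peak in each region around Vwf, Vcam1, Icam2 and Selp, by distance in kb from the gene's lower-coordinate end, with the gene as a grey band and regions of adjusted p under 0.05 in red. The red regions of Vwf lie at 17.8 kb below the gene, at its end, and 6.8 and 41.7 kb inside it.

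Vcam1, whose product holds leukocytes through their alpha4 integrins, had a wide range of levels over the stages. It stood at 0.568 CPM at E9.5 (0.371 to 0.833, 26 UMIs), 3.22 at E12.5 (2.84 to 3.64), 7.63 at E16.5 (6.82 to 8.5), 33.3 at P8 (31.9 to 34.8) and 190 in the adult (185 to 196, 4423 UMIs). No intervals overlap, and the ratio of adult to E9.5 was 335 (228 to 513), or 205 in thinned barcodes. The adult UMIs were held by few cells: the top 5% of barcodes (158) had 76.5% of them, and a UMI was found in 16.7% of barcodes.

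The level was not particular to the endothelial barcodes. Barcodes with none of the 6 endothelial genes had 0.901, 10.4, 39.1, 115 and 366 CPM of Vcam1 from E9.5 to adult, above the endothelial value at every stage. After thinning, the endothelial share with a UMI was 0.0931%, 0.677%, 1.00%, 3.35% and 9.09%, and that of the other barcodes 0.391%, 1.99%, 9.80%, 9.80% and 5.26%. In the adult the 5.26% rested on 5 of 95 barcodes and its 95% interval (1.73% to 11.9%) holds the endothelial share, so at no stage was the endothelial share above that of the other barcodes beyond counting error. Without barcodes holding a pericyte, smooth muscle or mesenchyme marker the level was 29.5 at P8 and 152 in the adult, and in thinned barcodes 28.7 and 95.1, so the adult level was the higher one in both.

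Within the endothelial barcodes, Vcam1 was found with arterial genes and not with the venous list. The 271 thinned adult barcodes with a Vcam1 UMI held a mean of 4.08 arterial genes against 1.55 in the others, and 1.62 venous genes against 1.86. Gkn3 was found in 71.6% against 15.1%, Stmn2 in 60.1% against 15.9%, Bmx in 44.6% against 10.7%, and the transcription factor Sox17 in 74.5% against 59.8%. Among venous genes Emcn was found in 21.8% against 46.2% and Slc38a5 in 13.3% against 29.2%.

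This arterial pattern of Vcam1 was already present in the earlier libraries. At E16.5 the 38 barcodes with a UMI held 4.05 arterial genes against 1.61, and at P8 the 157 barcodes held 4.00 against 1.11. Gkn3 was then found in 45.2% of barcodes with Vcam1 and 2.19% of those without. The genes most correlated with Vcam1 in the adult were Gkn3 (r = 0.49), Mgp (0.46) and Clu (0.36), above the largest values of the other genes named here. Smooth muscle markers were found in 19.2% of adult barcodes with Vcam1 against 4.39% of those without, and pericyte markers in 31.4% against 19.1%; their part in the pattern was not tested.

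The Vcam1 gene (chr3:116110020-116129688, mm10) was open at its upper-coordinate end in most libraries of both kinds. At P6 the peak was found in 13 of 14 endothelial libraries (2.83 to 6.58 fold) and 15 of 16 inputs (2.90 to 5.69), with no difference in mean share (0.00, exact permutation p = 1.00). In the adult it was found in 7 of 12 endothelial libraries: in both of brain, heart and liver and 1 of 2 in kidney, and in none of retina or lung. In the adult inputs 3 of 10 had it (difference 0.17, exact permutation p = 0.583). The adult share was below that of P6 by 0.36 (unadjusted exact permutation p = 0.0433, adjusted exact p = 0.157), which did not pass.

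A region 14.2 kb below the gene separated organs. This region, chr3:116095001-116096701, had a peak in all 8 P6 endothelial libraries of heart (4.32 and 4.02 fold), lung (3.60 and 3.56), liver (3.73 and 3.84) and kidney (4.17 and 4.02). It had none in the 3 brain or 3 retina endothelial libraries, and none in any of 16 inputs. The difference was 0.67 (exact permutation p = 0.000278, adjusted exact p = 0.0306). The call was lost when 1 of 5 libraries was left out, P6 kidney endothelial 1 or 2, liver endothelial 1, or lung endothelial 1 or 2 (adjusted exact p up to 0.0643), and without the retina libraries (difference 0.80, adjusted exact p = 0.110). With equal numbers of top peaks no P6 difference was left (0.00).

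In the adult the peak was found in heart (4.94 and 3.71 fold), liver (3.06 and 3.09) and kidney (4.28 and 4.25), with none in brain, retina or lung. Lung had it at P6 and not in the adult, where the lung lists were shorter (30974 and 19464 peaks, against 65908 and 60630 at P6). Over all organs, adult and P6 endothelial libraries were not told apart in this region (difference -0.17). The single adult heart input had a peak of 3.31 fold. At E12 it was found in 3 of 4 heart libraries (2.60, 2.69 and 3.74), and in none of 3 brain or 4 trunk libraries; the heart library without it was the sparse replicate 3. The brain endothelial libraries therefore had no peak there at any age, 0 of 8, although the brain cortex libraries of single cells held Vcam1 UMIs. The difference between organs was not tested.

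**Figure D5:**
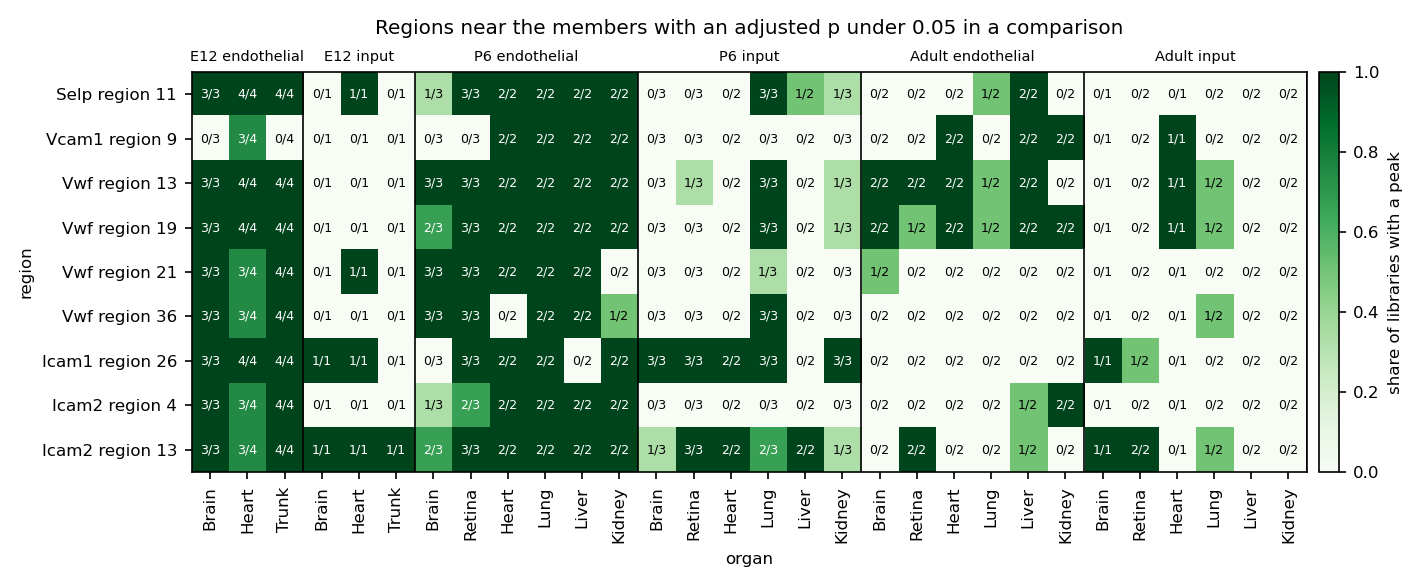
Number of libraries with a peak in the 9 regions near the 8 genes that passed in either comparison, by organ and age for endothelial and input libraries. The Vcam1 region at 14.2 kb was found in all P6 heart, lung, liver and kidney endothelial libraries and in no brain or retina library of any age.

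Icam1, the ligand of the leukocyte integrin LFA-1 that inflammation induces, was highest at E16.5 among the brain stages. It stood at 29.1 CPM at E9.5 (27.6 to 30.7), 76.8 at E12.5 (74.9 to 78.8), 120 at E16.5 (116 to 123), 78.7 at P8 (76.5 to 80.9) and 30.9 in the adult (28.7 to 33.3). The values of E9.5 and adult overlap, as do those of E12.5 and P8. The E16.5 level was 4.11 times that of E9.5 (3.87 to 4.37), and the adult level 1.06 times (0.969 to 1.16; 0.822 in thinned barcodes). At equal depth a UMI was found in 5.85%, 14.5%, 17.2%, 10.4% and 4.29% of endothelial barcodes, against 0.587%, 5.42%, 7.84%, 3.92% and 2.11% of those with none of the 6 endothelial genes. The intervals overlap from E16.5 on, where these other barcodes number 51 to 95. Immediate early genes, which tissue dissociation is known to induce, summed to 264, 583, 2707, 2865 and 3541 CPM; their part in the Icam1 levels was not tested.

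At every stage, barcodes with an Icam1 UMI held more venous genes than the others. The means were 1.20 against 1.11 at E9.5, 2.27 against 2.01 at E12.5 and 2.82 against 2.42 at E16.5. They were 2.54 against 2.16 at P8 and 2.51 against 1.81 in the adult. Arterial genes were fewer in barcodes with Icam1 at E9.5 (0.720 against 0.759), E12.5 (0.946 against 1.16), E16.5 (1.31 against 1.70) and P8 (0.846 against 1.25). In the adult they were more (2.12 against 1.77, 128 barcodes). The adult correlations were weak, the largest with Vcam1 (r = 0.15), Vwf (0.11) and Nr4a1 (0.10).

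The listed start of Icam1 (chr9:21015940-21028814, mm10, plus strand) was open in most libraries of both kinds. Its upstream bases are shown because this is the one listed start among the 8 genes with a peak in all 14 P6 endothelial libraries. The 250 bases before it (chr9:21015690-21015939, plus strand, RefSeq, GRCm38.p6) hold 65.2% G and C and 3 matches of the ETS core CCGGAA, in capitals, at 86 to 81, 65 to 60 (reverse strand) and 39 to 34 bases before the start:
Icam1: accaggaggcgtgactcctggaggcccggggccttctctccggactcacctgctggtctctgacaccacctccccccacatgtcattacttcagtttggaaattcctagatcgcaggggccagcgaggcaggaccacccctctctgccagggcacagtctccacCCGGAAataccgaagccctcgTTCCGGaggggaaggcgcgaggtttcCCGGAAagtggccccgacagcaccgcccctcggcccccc
Of 32851 listed promoters 12% hold CCGGAA on either strand in 250 bases. The NF-kB consensus site, searched on both strands and found in 3.9% of promoters, matched in none of the 5 promoters listed for these genes (Nr2f2, Icam1, Selp, Sele and Lcn2). Only exact matches of GGGRNWYYCC (R for A or G, N for any base, W for A or T, Y for C or T) were searched. Sites that differ from it by a base would be missed. The absence of a match says only that those letters are not in these windows.

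At P6 the Icam1 start had a peak in 14 of 14 endothelial libraries (2.45 to 4.62 fold) and 12 of 16 inputs (difference 0.25, exact permutation p = 0.10, adjusted exact p = 0.325). In the adult it had a peak in 9 of 12 endothelial libraries (2.36 to 3.51 fold) and 8 of 10 inputs (difference -0.08, exact permutation p = 0.778). Endothelial and input libraries overlapped at both ages and were not told apart by these tests. None of the 24 tested regions near Icam1 passed at P6 (4 higher and 2 lower at unadjusted p under 0.05). One, 3.8 kb upstream of the start (chr9:21011776-21012596, chosen after its values were seen), was in 14 of 14 P6 endothelial libraries and 7 of 16 inputs, and passed only with equal top peaks, a stricter q or a larger overlap (adjusted exact p = 0.0226, 0.0124 and 0.0343). With age, a region within the neighbour Icam5, 8.9 kb above Icam1 (chr9:21037463-21037990), went from 9 of 14 P6 to 0 of 12 adult endothelial libraries (difference -0.67, adjusted exact p = 0.0320). That region was also open in 14 of 16 P6 inputs, and the age call held in 15 of 26 removals of 1 library. It was lost in all 5 other settings (adjusted exact p of 0.0528 or more), with a difference of 0 with equal top peaks.

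Icam2, a ligand of the same integrin that endothelium makes without stimulation, was found in most endothelial barcodes at every stage. The levels ordered the stages from the adult at 310 CPM (303 to 317) through E9.5 at 358 (353 to 364), E12.5 at 371 (367 to 375) and P8 at 404 (399 to 409) to E16.5 at 435 (429 to 441), with no overlapping intervals. The E16.5 level was 1.4 times the adult one (1.37 to 1.44). At a mitochondrial limit of 5% the P8 level was the highest (478, against 438 at E16.5), and the adult level (353) lay above that of E9.5 (324). A UMI was found in 82.8%, 89.2%, 92.8%, 89.7% and 70.5% of barcodes from E9.5 to adult. After thinning the shares were 50.2%, 49.3%, 55.5%, 54.1% and 41.9%, against 12.1%, 4.33%, 5.88%, 1.96% and 5.26% in barcodes with none of the 6 endothelial genes. Adult barcodes with an Icam2 UMI held more arterial genes (2.14 against 1.52) and somewhat fewer venous ones (1.73 against 1.92).

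The Icam2 gene (chr11:106377656-106388139, mm10) seldom had a peak at its annotated ends: 0 of 12 adult, 1 of 14 P6 and 1 of 11 E12 endothelial libraries. A region inside the gene was open instead (chr11:106381862-106383749, chosen after its values were seen), in 11 of 12, 14 of 14 and 11 of 11 endothelial libraries. It was found in 3 of 10 adult, 8 of 16 P6 and 1 of 3 E12 inputs, and missed the threshold at P6 (adjusted exact p = 0.0560). It passed with equal top peaks (0.0116) and under the stricter q (0.0223).

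One of 29 tested regions near Icam2 passed at P6, where 1.48% of all regions did. It lies 36.7 kb below Icam2 within its neighbour Scn4a, a muscle sodium channel gene (chr11:106340335-106341497), and had a peak in 11 of 14 endothelial libraries (2.69 to 6.79 fold) and 0 of 16 inputs (difference 0.83, exact permutation p = 2.78e-05, adjusted exact p = 0.0148). The call held at the stricter q (adjusted exact p = 0.0386). It was lost with equal top peaks (difference 0.25, adjusted exact p = 0.359) and where a peak had to cover 50% of the region (difference 0). It was also lost without the retina libraries (difference 0.87, adjusted exact p = 0.110) and with the replicate block (0.534). The region was in 10 of 11 E12 endothelial libraries and 0 of 3 inputs. In the adult 3 of 12 had it, 1 liver and both kidney libraries, and the age difference did not pass (-0.58, adjusted exact p = 0.0646). A second region, 11.1 kb below Icam2 and 1018 bp from an end of Scn4a (chr11:106366172-106366982), went from 13 of 14 P6 to 3 of 12 adult endothelial libraries (difference -0.69, adjusted exact p = 0.0397). It was open in 11 of 16 P6 inputs too, and the call held in 6 of 26 removals of 1 library. It was lost in all 5 other settings, with a difference of -0.03 with equal top peaks (adjusted exact p = 1.00). Which gene either region acts on is not known from these data.

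Selp and Sele, the endothelial selectins, were close to the detection limit in the brain libraries. Selp gave 9, 7, 25, 34 and 10 UMIs from E9.5 to adult, in 8, 6, 9, 20 and 4 barcodes. Its level was 0.197, 0.0871, 0.588, 0.562 and 0.430 CPM, with overlapping intervals between neighbours in the order of levels. The lowest (0.0350 to 0.179 at E12.5) and the highest (0.381 to 0.869 at E16.5) do not overlap, on 7 and 25 UMIs. Without barcodes holding a pericyte, smooth muscle or mesenchyme marker the adult level was 0.0816.

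Sele gave no UMI at E9.5 and E12.5, where the upper limits of the intervals are 0.0806 and 0.0459 CPM, and 12, 97 and 23 UMIs at E16.5, P8 and adult. Its P8 level of 1.60 (1.30 to 1.96) lay above both limits. The adult level of 0.989 (0.627 to 1.48) overlaps that of P8, and at a mitochondrial limit of 5% the adult level was the higher one (1.64 against 0.724). It rested on 4 barcodes, 1 of which held 18 of the 23 UMIs, and was 0.163 without barcodes holding a pericyte, smooth muscle or mesenchyme marker. At P8 the UMIs came from 45 barcodes.

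The starts of both selectin genes had a peak in the endothelial libraries of some organs and none listed in those of others, a difference between organs that was not tested. The 250 bases before the listed starts of Selp (chr1:164115014-164115263, plus strand) and Sele (chr1:164047984-164048233, plus strand; RefSeq, GRCm38.p6) are shown because both were found in the same organs at P6. Capitals mark AGGTCA, the nuclear receptor half-site, on the reverse strand 93 to 88 bases before the Selp start, and TATAAA, 49 to 44 bases before that of Sele:
Selp: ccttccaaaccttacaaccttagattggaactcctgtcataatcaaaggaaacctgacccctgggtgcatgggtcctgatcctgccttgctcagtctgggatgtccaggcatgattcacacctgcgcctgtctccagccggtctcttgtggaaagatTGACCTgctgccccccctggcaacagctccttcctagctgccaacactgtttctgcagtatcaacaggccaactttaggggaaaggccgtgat
Sele: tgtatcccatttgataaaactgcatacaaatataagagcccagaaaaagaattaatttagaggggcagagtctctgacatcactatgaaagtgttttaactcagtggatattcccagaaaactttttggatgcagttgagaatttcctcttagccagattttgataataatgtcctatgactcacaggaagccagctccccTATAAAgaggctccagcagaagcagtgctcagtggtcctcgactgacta
AGGTCA is found on either strand in 14.0% and TATAAA in 12.4% of the 32851 promoters. The listed start of Sele lies inside its annotated span (chr1:164039614-164058487), so this window may not be its only promoter. Selp spans chr1:164115264-164150026.

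At P6 the Selp start had a peak in 6 of 14 endothelial libraries: both of heart (3.60 and 3.71 fold), liver (4.94 and 4.51) and kidney (4.08 and 3.51), and none in brain, retina or lung. Of the inputs 1 of 3 kidney libraries had it (2.81). The difference was 0.44 (exact permutation p = 0.0111, adjusted exact p = 0.107), which did not pass. In the adult it was found in 0 of 12 endothelial and 0 of 10 input libraries, and the difference from P6 was -0.50 (exact permutation p = 0.00926, adjusted exact p = 0.0647). At the gene ends 0 of the 8 genes passed between adult and P6, where 11.4% of 6956 gene ends passed as lower; 2 of the 8, Vcam1 and Selp, were lower at unadjusted p under 0.05, as were 28.2% of all. With a window of 2500 bp in place of 500, Selp was at 1 of 12 against 12 of 14 (difference -0.81, adjusted exact p = 0.0108) and Nr2f2 at 2 of 12 against 10 of 14 (-0.58, adjusted exact p = 0.0404). The share of all gene ends that passed at this window is not given here, so these 2 calls are no result about the 8 genes. At E12 the Selp start was found in 3 of 4 heart libraries and nowhere else.

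Sele followed a similar pattern of organs. At P6 its start had a peak in both heart libraries (4.01 and 2.70 fold), both liver libraries (5.00 and 3.96) and 1 of 2 kidney libraries (3.49), and in both heart inputs (4.51 and 3.31). That is 5 of 14 endothelial libraries against 2 of 16 inputs (difference 0.25, exact permutation p = 0.0667, adjusted exact p = 0.274). In the adult 1 liver and 1 kidney endothelial library had it. The brain, retina and lung endothelial libraries of both ages had no peak at either start.

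One region of Selp passed at P6, 5.4 kb downstream of the start (chr1:164120198-164121179). It had a peak in 12 of 14 endothelial libraries (2.84 to 4.79 fold) and 5 of 16 inputs, 3 of them lung (difference 0.58, exact permutation p = 0.000833, adjusted exact p = 0.0454). In the adult 3 of 12 had it, 1 lung and both liver libraries (difference from P6 -0.64, adjusted exact p = 0.0375), and at E12 11 of 11. Both calls were near the threshold. Leaving out 1 library in turn gave adjusted exact p 0.0394 to 0.0973 for the first, which passed in 4 of 30. For the second it gave 0.0260 to 0.0729, with a pass in 9 of 26. Without the retina libraries both were lost (differences 0.50 and -0.57, adjusted exact p = 0.200 and 0.196). With equal numbers of top peaks both were lost (difference 0.17, adjusted exact p = 0.748, and a difference of 0). Of the 23 tested regions of Selp, 9 (39.1%) were higher in P6 endothelial libraries at unadjusted p under 0.05, where 6.16% of all regions were. Of 18, 7 (38.9%) were lower in adult than in P6 endothelial libraries, where 17.0% of all were. Neighbouring regions are not independent of each other. None of the 14 tested regions of Sele passed at P6 (2 higher and 0 lower at unadjusted p under 0.05). One inside the gene (chr1:164043262-164044263, chosen after its values were seen; 13 of 14 against 9 of 16) passed with equal numbers of top peaks (10 of 14 against 2 of 16, adjusted exact p = 0.0343; 0.133 otherwise).

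Lcn2 was found mainly in the later brain libraries. It gave 0, 10, 50, 583 and 77 UMIs from E9.5 to adult, or 0, 0.124, 1.18 (0.873 to 1.55), 9.64 (lower bound 8.88) and 3.31 (2.61 to 4.14) CPM. The P8 level lay above the upper limit at E9.5 (0.0806) and above the adult level. The UMIs came from 374 barcodes at P8 and 56 in the adult. After thinning, 1.62% of endothelial barcodes held an Lcn2 UMI at P8. Of the barcodes with none of the 6 endothelial genes 0 of 51 did, which allows a share of up to 5.88%. In the adult the share was 0.537%, against 1.05% (1 of 95) in those other barcodes. The shares therefore do not show endothelial expression at this depth, and the barcodes with an Lcn2 UMI are not described further.

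The listed start of Lcn2 (chr2:32384637-32387739, mm10, minus strand) had a peak in 4 of 14 P6 endothelial libraries, 2 of 3 in brain and 2 of 2 in heart (3.05 to 4.52 fold). Of the P6 inputs 6 of 16 had it: all 3 of lung, both of liver and 1 of 3 of kidney (2.83 to 4.67 fold). Endothelial and input peaks thus came from different organs, and the test did not tell the shares apart (-0.11, exact permutation p = 0.537, adjusted exact p = 0.885). In the adult it was found in 2 of 12 endothelial libraries and 2 of 10 inputs, and at E12 in none. None of the 21 tested regions near Lcn2 passed at P6 (1 higher and 2 lower at unadjusted p under 0.05). One 49.6 kb away, within Slc25a25 (chr2:32436810-32437891, chosen after its values were seen; 14 of 14 against 13 of 16), passed with equal numbers of top peaks (12 of 14 against 3 of 16, adjusted exact p = 0.0072; 0.511 otherwise). Outside the start, 3 of its regions were open in every endothelial and input library of all ages.

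Some of these genes were found in the same adult barcodes. After thinning, 137 barcodes held both Vwf and Vcam1: Vcam1 was found in 21.0% of barcodes with Vwf and 5.75% of the others, and Vwf in 50.6% of those with Vcam1. Vwf was found in 36.0% of barcodes with Nr2f2 and 20.0% of the others. Icam1 was found in 8.45% of barcodes with Vwf and 3.13% of the others. Barcodes with Vwf thus overlapped with those of Vcam1 and with those of Nr2f2.

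Taking all regions near the 8 genes, 7 of 204 tested (3.43%) passed as higher in P6 endothelial libraries than in input, where 1.48% of all regions did, and 0 passed as lower, where 0.563% did. At unadjusted p under 0.05, 31 were higher (15.2%, against 6.16% of all regions) and 12 lower (5.88%, against 9.06%). In the adult 0 passed; 8 were higher at unadjusted p under 0.05 (5.56%, against 1.67% of all), and no region in the genome passed with these 22 libraries. Between adult and P6 endothelial libraries, 5 of 146 passed as lower in the adult (3.42%), at the background of 3.45%, so this count is no result about the 8 genes. The comparisons share their endothelial libraries. In place of 7, 4 regions passed without P6 kidney endothelial replicate 1 and 0 without the retina libraries. In place of 5, 10 passed without P6 brain endothelial replicate 1 and 1 without adult retina endothelial replicate 1.

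Regions open in 1 organ's endothelial libraries and in no other organ's at that age numbered 45 near the 8 genes, counted over 15 groups of organ and age. They were 6.16% of the 731 cases in which a region near these genes was open in all libraries of a group, against 9.03% over all regions, and the share was below that of all regions in 12 of the 15 groups. Such regions were thus no more frequent here than elsewhere. Some held at both ages. The region chr6:125729908-125730429, beyond the upper end of Vwf, was found in 2 of 2 adult and 3 of 3 P6 brain endothelial libraries, against 0 of 1 and 2 of 3 brain inputs. The region chr11:106417791-106418328 near Icam2, within Ern1, was found in 2 of 2 liver endothelial libraries at both ages and in 0 of 2 liver inputs at each. A region near Vcam1 (chr3:116168044-116168745) was found in both heart endothelial libraries at both ages, in the single adult heart input and in 0 of 2 P6 heart inputs. In the retina 4 regions held at both ages: near Lcn2 (chr2:32388764-32389449), near Vwf (chr6:125727085-125728217) and 2 near Icam2 (chr11:106338117-106338791 and chr11:106344560-106345469). All 4 were in both adult retina inputs and in 1 or 2 of the 3 P6 retina inputs.

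The gene lists around these 8 were read the same way. Of 12 venous genes 4 had their highest brain level in the adult, where 33.7% of all genes did, so this is the background share. Slc38a5 was highest at E16.5 (857 CPM, against 214 in the adult), Tmem252 too (386 against 181), and Emcn at E12.5 (537 against 255). Of 12 arterial genes 5 were highest in the adult, including Gkn3 (0 at E9.5, 92.5 at P8, 965 in the adult), Sox17 (71.1 at E9.5, 581), Stmn2 (33.2, 319) and Bmx (3.61, 173). The arterial list summed to 2546 CPM in the adult against 878 at P8, and the venous list to 1382 against 1849. Of the 12 venous genes 6 were higher and 6 lower in the adult than at P8; Emcn (255 against 178) and Il1r1 (111 against 25.8) were among the higher. Without Gkn3, Sox17, Stmn2 and Bmx the arterial sums were 508 and 463, so the gap lay mostly in them. The arterial genes Gja4 (118 CPM in the adult against 185 at P8), Dll4 (34.3 against 80.2) and Unc5b (40.0 against 49.2) went the other way, and as many arterial genes, 5, were highest at E16.5 as in the adult. Of 15 genes of leukocyte passage 8 were highest in the adult, with the chemokine Cxcl12 at 2083 against 533 at P8. Of 12 genes of the NF-kB response 4 were, again at the background share, with the inhibitor Nfkbia at 957 against 324.

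The counter-receptors of leukocytes were low in the endothelial barcodes, except for a shared integrin chain. None of 8 counter-receptor genes was highest in the adult. Itgb2, the beta chain of LFA-1, stood at 1.42 CPM there and Selplg, the ligand of P-selectin, at 1.76, while Itgb1, which endothelial cells make too, stood at 531. At the gene ends, where 0.679% of all passed as higher in P6 endothelial libraries and 3.19% were higher at unadjusted p under 0.05, 1 of 7 tested venous genes passed as higher, Tmem252 (13 of 14 against 6 of 16, difference 0.58, adjusted exact p = 0.0337), with a median difference of 0.33 for the 7 and -0.08 for all genes tested. Of these 7 venous genes 4 were higher at unadjusted p under 0.05. Of 7 arterial genes 0 passed (median 0.19, 2 higher at unadjusted p under 0.05). Of 6 genes of leukocyte passage 1 passed, Pecam1 (14 of 14 against 5 of 16, difference 0.69, adjusted exact p = 0.0299). Of 5 counter-receptors and 3 NF-kB response genes 0 passed (medians -0.11 and 0.00, and 1 and 0 higher at unadjusted p under 0.05). Between adult and P6, 2 of 8 venous genes were lower in the adult, Aplnr (6 of 12 against 14 of 14, adjusted exact p = 0.0291) and Flrt2 (0 of 12 against 9 of 14, 0.0291), and 1 of 7 arterial genes, Gja5 (0 of 12 against 10 of 14, 0.0188). Of all gene ends tested, 11.4% passed as lower, so 1 of 7 is near the background and 2 of 8 is 1 gene above it.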

How the data were processed

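Peaks had been called by the authors in each ATAC-seq library alone with MACS2 2.1.2, with no control, broad, shift -100, extension 200, q 0.05 and 0.1, and 1 tag kept per position, per the file headers. The deposited columns used were the pileup signal, the fold enrichment (a ratio over local background) and −log10 q, and none is scaled between libraries, so presence of a peak was tested. The submitters' processing notes name Bowtie2, Picard, SAMtools 1.13, Cell Ranger and build mm10. Single-cell values are UMI counts deposited by the authors as filtered matrices; for the E16.5 matrix no gene table of its own was used here, and its rows were read in the order of the other stages' tables. No doublet caller was run.

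The test was an exact permutation test (2-sided) of peak presence, labels permuted within organ, with Benjamini-Hochberg adjustment over all gene ends or all regions that vary. The difference is the mean over organs of the share of libraries in the first group less that in the second. Regions are peaks of all libraries merged at 1 bp of overlap. Gene starts had been planned; since the gene table gives no strand for all genes, both annotated ends (within 500 bp) and the listed start were used. Positions come from RefSeq (GRCm38.p6), the same build as mm10. Intervals are exact Poisson, and Clopper-Pearson for shares, at 95%; the share that a count of 0 barcodes allows is 3 of the total. Barcodes were thinned to 2000 UMIs (seed 11). Alternatives were equal numbers of top peaks (19464 per library), −log10 q of at least 3, other windows, leaving out each library and the replicate block. Added after the data were seen were peaks covering 50% of a region, listed starts only, leaving out the retina libraries and leaving out barcodes with a pericyte, smooth muscle or mesenchyme marker. The tests were tested on simulated data. Python 3.11.15, NumPy 2.4.6, SciPy 1.17.1 and Matplotlib 3.10.9 were used.

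The 8 genes and the lists were chosen with earlier results of these data known. Named by rule were the 8 genes, at most 4 genes of each list (highest adult level, lowest p at gene ends), the 3 most correlated genes (some are not reported here), and called regions and regions open in 1 organ; the text gives all called regions and those open in 1 organ at both ages, a choice made after their values were seen. The list of leukocyte passage held 16 genes, 15 of them in the matrices. The 54 bulk RNA samples were not analysed here.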

Additional observations from a re-analysis of the deposited data

Results flagged for a closer look

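In E12 heart endothelial libraries, replicate 3 stood far from the other 3 in the number of regions with a peak: 38 near all 8 genes against 95, 95 and 95, 3 near Nr2f2 against 10, 10 and 10, 2 near Vcam1 against 9, 9 and 9, and 6 near Selp against 14, 14 and 14. Its peak list was short as a whole, at 39096 peaks. In E12 trunk endothelial libraries 1 library had 13 regions near Icam1 against 12, 12 and 12 in the others, a difference of 1 region. The flag is meant to arise by chance in about 1 in 20 groups, a rate that was not tested for small tied counts such as these.

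At the Lcn2 listed start in P6, both heart endothelial libraries had a peak and neither heart input did (difference in share 1), while in lung and liver all inputs and no endothelial library had one. The difference between these organs was not tested.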

How the results depend on the processing

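Whether the labels' replicate numbers pair the libraries cannot be told from these data. Same-numbered endothelial and input libraries deviated together with correlations of -0.16 to 0.15 over 20 pairs, 4 of them over 0.1. Organs with 2 libraries of each kind give the same value for both numbers, so the 20 are not independent. With the replicate block, 0 gene ends passed at P6 (1 without the block), 0 regions at P6 (7) and 0 regions between adult and P6 (5). None of the 13 differences at single genes or regions that passed changed sign under an alternative, but 7 of them fell to 0 under one. Of 37 that did not pass, 6 changed sign in 1 or 2 alternatives each, none past the threshold: at the gene ends of Icam2 and Lcn2 at P6 and of Vwf and Icam1 between ages, and in a region each of Vcam1 and Vwf between ages. The 1 gene end at P6, Vwf, also fell to 0 with equal numbers of top peaks, with listed starts only (the promoter table lists none for Vwf) and without the retina libraries. The 7 regions at P6 became 11 at −log10 q of at least 3 (all 7 and 4 more, 1 of them, near Nr2f2, lower in endothelial libraries), 2 where a peak had to cover 50% of a region (0 of them among the 7), 4 within 10 kb and 0 without the retina libraries. With equal top peaks 6 regions passed, 0 of them among the 7. The share of all regions that passed is not given for the stricter q, the larger overlap or equal top peaks. The counts of 11, 2 and 6 therefore have no background to be read against. The 5 regions between adult and P6 became 0 with equal top peaks, 2 at the stricter q, 0 at that overlap and 0 without the retina libraries. The 0 gene ends between adult and P6 became 2 with the window of 2500 bp, for which the share of all gene ends is not given. The cause was not tested, beyond the fewer libraries when retina is left out.

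Leaving out 1 library in turn gave 4 to 8 regions at P6, 1 to 10 between adult and P6, 1 to 1 gene ends at P6 and 0 to 0 elsewhere. The 4 came without P6 kidney endothelial 1. Between adult and P6 the count moved by over 1.5 times when any 1 of 18 libraries was left out: all 5 of retina, all 4 of heart, brain except P6 brain 2 and 3, kidney except P6 kidney 2, and lung except adult lung 1; it was 10 without P6 brain endothelial 1, 1 without adult retina endothelial 1 and 2 or 3 without the others. In single cells the number of genes highest in the adult was 2 to 4 (3 in the main analysis). The planned rule on overlap was met by every peak by construction and was not run. The 45 regions open in 1 organ became 31 with equal top peaks, 48 at the stricter q and 34 at the larger overlap. Presence of a peak depends on the length of each list, and a peak missing from a short list is not a closed site.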
